A study of Homo sapiens with 5 samples.

Results

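SALL4A and SALL4B, the splice forms of the transcription factor SALL4, were compared directly in SNU-387, an established human hepatocellular carcinoma cell line. The comparison set the RNA-seq library of cells carrying a SALL4A overexpression vector against that of cells carrying a SALL4B overexpression vector, with empty vector cells as the common reference. Genes were taken at 1 FPKM or more in either isoform library, which kept 12424 of 24544 symbols. FPKM counts mapped fragments scaled by transcript length and by library depth. The series holds 5 libraries from 2 lines. The other 2 libraries are SNU-398 cells titled as input, called untreated here, and SNU-398 cells with a SALL4 knockdown. The title does not say whether the input cells carried a control vector. Per the labels' protocols, all cells were grown in RPMI with 10% serum, lentivirus and puromycin selection are listed for every sample, and the rRNA-depleted libraries were made from total RNA. Each group was 1 library, so no difference below carries replicate error and no test was possible. The labels do not say which promoter drove the vectors, whether the cells were clones or pools, or how long after transduction RNA was taken.

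SALL4 is a zinc finger factor of early embryos and fetal liver that recruits the histone deacetylase complex NuRD and is switched on again in a share of liver tumours. Its zinc fingers are arranged in clusters along the protein. The short form is made by splicing within the second exon, which removes internal clusters and leaves the last one, the cluster that reads AT-rich DNA. The forms therefore share their amino terminus, which binds NuRD, and their carboxyl-terminal DNA-reading cluster.

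In GENCODE 29 on GRCh38, the gene lies on the minus strand of chromosome 20, and the long form SALL4-201 has 3159 coding bases for 1053 residues. The short form SALL4-203 has 1848 coding bases for 616 residues. The short form lacks 1311 bases of exon 2, chr20:51790022-51791332, or 437 residues. The junction is shown because it is where the coding sequences part, with 40 shared bases in lower case and the 40 bases that follow in each form in capitals.
SALL4A: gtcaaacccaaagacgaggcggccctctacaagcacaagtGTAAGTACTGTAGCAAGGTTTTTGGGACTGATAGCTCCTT
SALL4B: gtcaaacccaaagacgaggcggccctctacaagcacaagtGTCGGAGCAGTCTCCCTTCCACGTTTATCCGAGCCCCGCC
The deposited value is 1 FPKM figure for the whole gene, so it does not separate the forms. SALL4 stood at 0.117 FPKM with empty vector, 23.1 with SALL4A and 10.4 with SALL4B, a ratio of 2.23 between the isoform libraries. The short form has fewer coding bases, and how the deposited value took length into account is not stated, so this ratio does not give the relative number of SALL4 transcripts. The form and its dose cannot be told apart in any difference below. Untreated SNU-398 cells held 39.4 FPKM, above both.

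Depth had to be estimated, since the tables give no counts. It came to about 24 M fragments with SALL4A, 12.15 M with empty vector and 9 M with SALL4B, where M stands for mega, so that 1 FPKM of a 2 kb transcript stood for about 18 fragments in the shallowest of them. The tables listed 4931 symbols at 0 with empty vector, 6653 with SALL4A and 8077 with SALL4B, an order that the estimated depth does not follow. Small structural RNAs made up 14.4% of summed FPKM with SALL4A, 8.97% with SALL4B and 8.49% with empty vector. The line carried few hepatocyte transcripts: 3 of 19 hepatocyte markers reached 1 FPKM with either isoform, and ALB (albumin) was listed at 0 in both isoform libraries. Fibroblast and stellate markers were abundant, at a summed 1132 FPKM with empty vector, 510 with SALL4A and 659 with SALL4B. Of these sums LUM alone made up 263, 176 and 488. Leukocyte markers summed to 59.3, 30.2 and 49.6 FPKM in the same order, of which CD68 alone made up 34.0, 15.5 and 41.7. Both SALL4B sums thus rested mostly on 1 gene each. PTPRC, the pan-leukocyte marker, stood at 1.19, 0.786 and 0.547. What part other cells might have had in these levels was not tested.

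At least 2-fold apart, on the scale log2((FPKM + 1)/(FPKM + 1)), were 895 genes, 7.2% of those compared. Of these, 474 were higher with SALL4A (3.82%) and 421 were higher with SALL4B (3.39%). Most of the transcriptome lay close together, with 70.5% of genes within 0.5 on the log2 scale and a median of 0.00 (SD 0.74 across genes). The small RNAs were uneven, with 100 of the genes higher with SALL4A and 12 of those higher with SALL4B. Without them the counts were 374 (3.06%) and 409 (3.34%). The split also followed the scaling: SALL4A took 53% of the differences in the deposited values, 64.1% after scaling to a common total and 72.1% after scaling to a common total without small RNAs, which moved the all-gene median to 0.09 and 0.17. It took 43.6% among genes at 1 FPKM or more in both libraries. Genes at the boundary differed little from each other: DOCK9 at 1.01 and CYB5A at −1.002 were counted, while TLE3 at 0.997 and TSR2 at −0.999867 were not. There were 202 genes within 0.1 above the boundary and 272 within 0.1 below it.

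Large differences leaned to 1 side. At 4-fold or more, and without small RNAs, 61 of 12235 genes were higher with SALL4A and 34 were higher with SALL4B. Of the 61, 22 were at the empty vector level with SALL4A and below it with SALL4B, 19 were below it with both and further with SALL4B, and 17 lay on opposite sides. The remaining 3 stood above empty vector with SALL4A alone. Most of the wide gaps in favour of SALL4A were thus low values in the SALL4B library, the shallowest of these by estimated depth. A gene could also pass the 1 FPKM filter through its higher library alone. At 2-fold that held for 216 of the 474 genes higher with SALL4A and 87 of the 421 higher with SALL4B. What part depth and the filter had in the lean at 4-fold was not tested. Of the 34 genes higher with SALL4B, 15 were above empty vector with SALL4B alone and 11 lay on opposite sides.

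**Figure D1:**
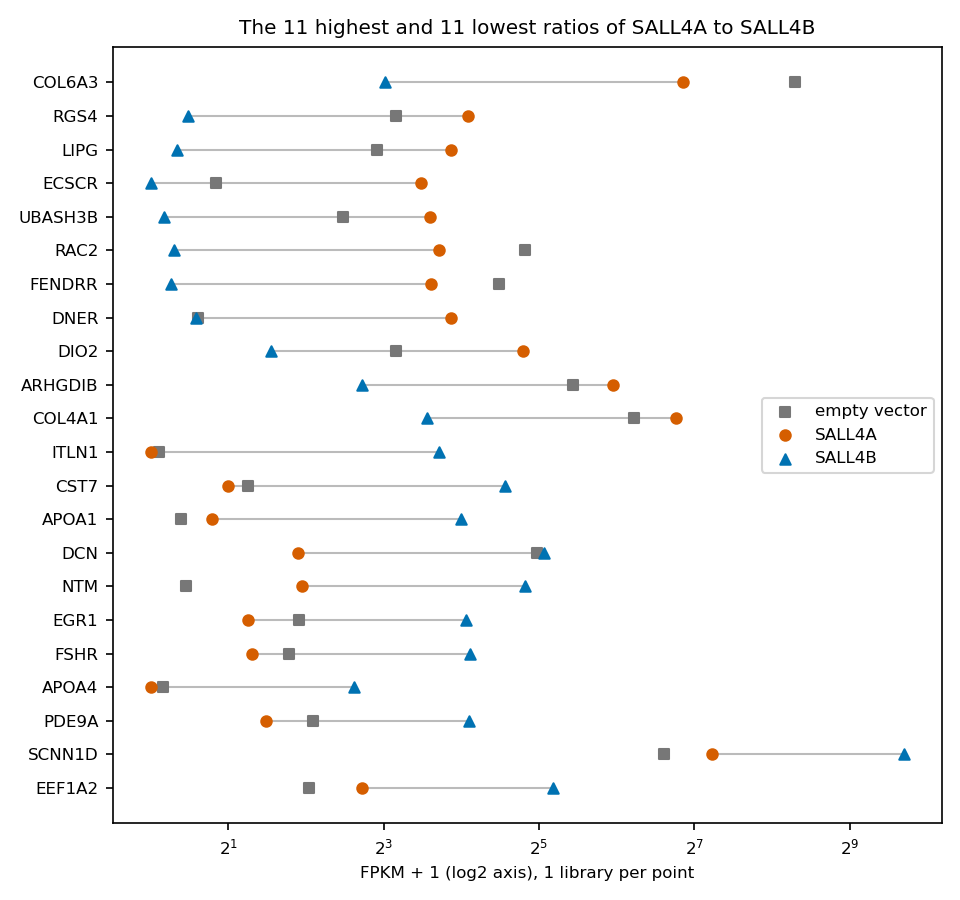
FPKM + 1 (log2 axis) of the 11 genes with the highest and the 11 with the lowest ratio of SALL4A to SALL4B, with 1 library per point and a line joining the isoform libraries. COL6A3 runs from 115 FPKM with SALL4A to 7.07 with SALL4B, and ITLN1 from 0 with SALL4A to 12.1 with SALL4B.

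The widest gap belonged to COL6A3, a chain of the microfibril-forming collagen VI (chromosome 2, 237324003 to 237414375, minus strand). It stood at 313 FPKM with empty vector, 115 with SALL4A and 7.07 with SALL4B, a log2 ratio of 3.84 between isoforms. About 684 fragments underlay the SALL4B value, so the gap did not come from a near-empty count. RGS4, which speeds GTP hydrolysis on G proteins, stood at 7.90, 15.9 and 0.398 FPKM in the same order (3.60). LIPG, endothelial lipase, stood at 6.55, 13.6 and 0.263 (3.53). These last genes were above empty vector with SALL4A and below it with SALL4B.

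RAC2 and ARHGDIB, a small GTPase of blood cells and a regulator of such GTPases, were both lower with SALL4B. RAC2 stood at 27.3 FPKM with empty vector, 12.2 with SALL4A and 0.231 with SALL4B (3.42), the last on about 3 fragments. ARHGDIB stood at 42.2, 61.2 and 5.61 (3.23). IL13RA2, the decoy receptor for interleukin 13, stood at 104, 10.5 and 0.257 (3.20). DIO2, the enzyme that activates thyroid hormone, stood at 7.95, 26.8 and 1.93 (3.25), and UBASH3B, a tyrosine phosphatase, at 4.57, 11.1 and 0.124 (3.43).

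On the other side, ITLN1, a lectin that binds microbial sugars (chromosome 1, 160876539 to 160885170, minus strand), stood at 0.0747 FPKM with empty vector, was listed at 0 with SALL4A and reached 12.1 with SALL4B (−3.71). CST7, an inhibitor of lysosomal cysteine proteases, stood at 1.38, 1.001 and 22.6 (−3.56). FSHR, the receptor for follicle-stimulating hormone, stood at 2.43, 1.48 and 16.2 (−2.80). EGR1, an immediate early transcription factor, stood at 2.76, 1.38 and 15.6 (−2.81). PDE9A, which breaks down cyclic GMP, stood at 3.25, 1.81 and 16.1 (−2.61). In all 5 genes the SALL4B value was the highest, and SALL4A and empty vector lay at 3.25 FPKM or less. EGR1 and PDE9A were below the empty vector level with SALL4A by the log2 limit of 0.5 used next.

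The 895 genes were then placed by where each isoform stood against empty vector, counting a log2 ratio within 0.5 as the empty vector level. The 2 ratios share their denominator library and are not independent. Only SALL4A was off the empty vector level for 233 genes, only SALL4B for 381, SALL4A was further off on the same side for 21, SALL4B was further for 120, and the isoforms lay on opposite sides for 140. Genes at which 1 isoform went further were thus 141 of the 895 differences, and those off the empty vector level with 1 isoform alone were 614. The split rests on the limit: at 0.25 it was 215 further, 309 alone and 371 on opposite sides, and at 1 it was 68, 523 and 8, with 296 in no class. The scatter of both ratios shows the classes.

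**Figure D2:**
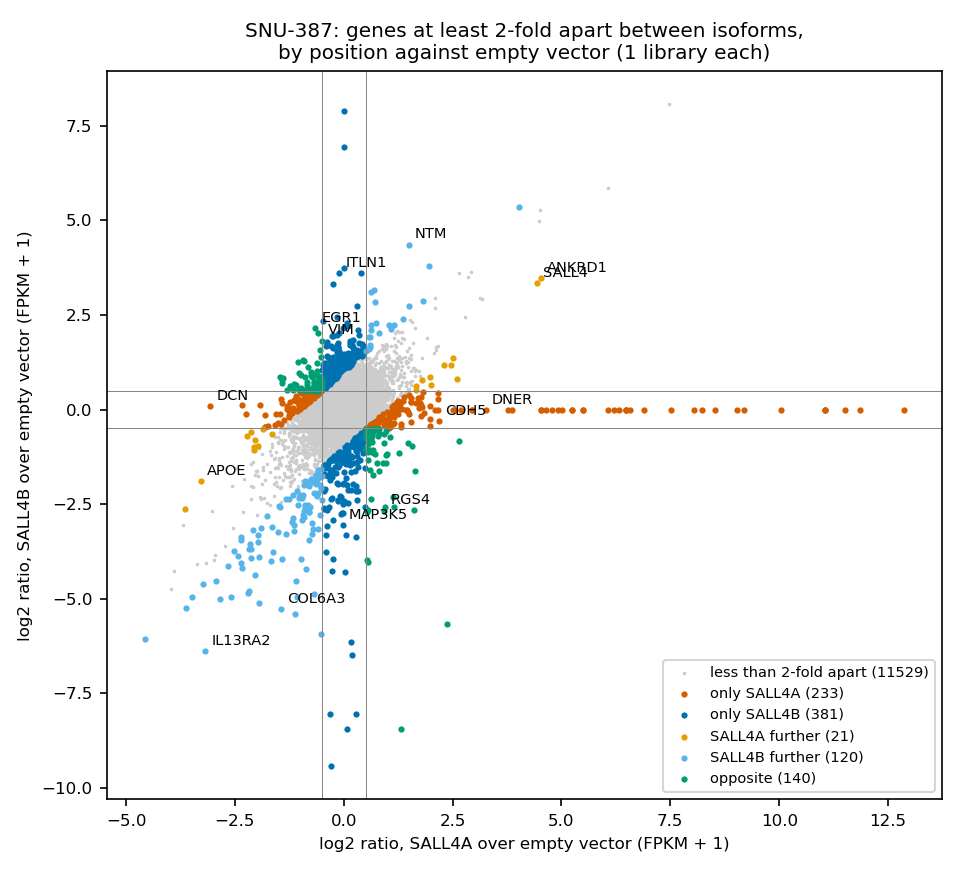
Log2 ratio to empty vector with SALL4B (vertical) against that with SALL4A (horizontal) for the 12424 genes, coloured where the isoforms were at least 2-fold apart, with grey lines at 0.5 either way. The run of orange points far to the right at 0 on the vertical axis is mostly small RNAs, which make up 50 of the 136 genes above empty vector with SALL4A alone.

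Going further in the same direction was mainly a matter of lower values with SALL4B, with 98 genes below empty vector with both isoforms and further below with SALL4B (0.789% of genes compared). The reverse, further below with SALL4A, held for 10 genes (0.0805%). With 1 FPKM required in both isoform libraries these counts were 51 and 9, so the size of the contrast rested in part on the filter. COL1A2, a chain of fibrillar collagen I, stood at 326 FPKM with empty vector, 83.2 with SALL4A and 8.50 with SALL4B (3.15). TNFRSF11B, the decoy receptor osteoprotegerin, stood at 152, 32.1 and 4.30 (2.64). FENDRR, a long noncoding RNA, stood at 21.3, 11.3 and 0.196 (3.36), the last on about 5 fragments. The SALL4A value lay between the other libraries in each of these.

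In the small set further below with SALL4A, APOE, a carrier of lipids, stood at 27.3 FPKM with empty vector, 1.90 with SALL4A and 6.62 with SALL4B (−1.39). CFB, complement factor B, stood at 36.3, 1.99 and 5.08 (−1.02), less than 2-fold apart after scaling to a common total, with or without small RNAs, or to a common upper quartile. OAS1, an interferon-induced sensor of double-stranded RNA, stood at 7.68, 1.41 and 5.08 (−1.34), and FDCSP, a small secreted peptide, at 78.4, 15.9 and 47.8 (−1.53).

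Further above empty vector with SALL4A stood 11 genes (0.0885%), SALL4 itself among them. ANKRD1, a target of the Hippo effector YAP, stood at 0.935, 43.4 and 20.4 FPKM (1.05), close to the SALL4 transcript in its ratio between isoforms. CEMIP, a hyaluronan-binding protein, stood at 2.50, 20.2 and 5.13 (1.79). Further above with SALL4B stood 22 genes (0.177%). NTM, a neural adhesion molecule, stood at 0.376, 2.87 and 27.3 (−2.87), and EEF1A2, a translation elongation factor of muscle and brain, at 3.09, 5.60 and 35.4 (−2.46). SCNN1D, an epithelial sodium channel subunit, stood at 96.8, 150 and 834 (−2.47). In these 3 genes SALL4A lay between the other libraries.

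Above empty vector with SALL4A alone stood 136 genes (1.09%), 86 of them not small RNAs. Only 50 of the 136 were at 1 FPKM or more in both isoform libraries. The others, DNER and CDH5 among them, passed the filter through the SALL4A library alone. DNER, a Notch ligand of neurons, stood at 0.523 FPKM with empty vector, 13.6 with SALL4A and 0.504 with SALL4B (3.28). CDH5, the cadherin of endothelial junctions, stood at 0.333, 5.06 and 0.0791 (2.49). JPH2, a junction protein of heart muscle, stood at 2.17, 6.92 and 1.43 (1.70), and VEPH1 at 1.48, 10.0 and 1.99 (1.88). Below empty vector with SALL4A alone stood 97 genes (0.781%). DCN, the proteoglycan decorin (chromosome 12), stood at 30.4, 2.73 and 32.5 (−3.16). DPP4, a surface peptidase, stood at 31.0, 7.41 and 33.8 (−2.05), and ANGPT1, a vascular growth factor, at 83.6, 30.3 and 102 (−1.72). The SALL4B value of each of these lay close to empty vector.

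With SALL4B alone, 221 genes were above empty vector (1.78%) and 160 below it (1.29%), or 165 and 101 with 1 FPKM required in both libraries. After scaling to a common total without small RNAs these counts were 143 and 247, against 203 and 55 with SALL4A alone. KRT86, a hair keratin, stood at 4.24, 5.47 and 33.8 FPKM (−2.43). MAP3K5, a stress-activated kinase, stood at 8.97, 8.82 and 0.208 (3.02). WNT5B, a secreted Wnt ligand, stood at 13.5, 9.83 and 0.464 (2.89), and SFN, a 14-3-3 protein, at 14.2, 11.8 and 0.991 (2.69). TRPV2, a cation channel, stood at 8.25, 7.85 and 0.355 (2.71). For these genes the SALL4A and empty vector values were near each other while SALL4B was the odd library out.

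On opposite sides of empty vector lay 69 genes with SALL4A on the upper side (0.555%) and 71 with SALL4B on the upper side (0.571%). The balance moved with the scaling, to 81 and 50 for a common total and to 105 and 37 for a common total without small RNAs. VIM, the intermediate filament of mesenchymal cells, stood at 47.4 FPKM with empty vector, 33.1 with SALL4A and 170 with SALL4B (−2.33). It was barely in this class, since its log2 ratio of SALL4A to empty vector was −0.504 against the limit of 0.5. RUNX2, a transcription factor of bone, stood at 98.2, 50.5 and 247 (−2.27). FOLR1, a folate receptor, stood at 22.8, 10.4 and 56.3 (−2.33). In RUNX2 and FOLR1 the SALL4A level was near 0.5 of empty vector and the SALL4B level more than 2-fold above it.

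Gene lists drawn up for liver, matrix, signalling, metabolism and proliferation were then read against these backgrounds. A list counts its members at 1 FPKM with either isoform, so a member can enter through the library in which it is high. That held for 216 of the 474 genes higher with SALL4A and 87 of the 421 higher with SALL4B. Among the collagens it held for 3 and 2 of those apart. Of 28 collagen genes at 1 FPKM, 12 were higher with SALL4A and 4 with SALL4B, with a median of 0.53 against 0.00 for all genes. In 9 of the 28 both isoform values were below empty vector and SALL4B was further down. COL4A1 and COL4A2, the main chains of basement membranes, stood at 73.5, 108 and 10.8 FPKM (3.20) and at 65.4, 80.8 and 11.6 (2.70). The plot of the collagens shows SALL4B lowest in most of the abundant chains.

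Type IV collagen chains are encoded head to head in pairs, and the pairs differed in direction. They were looked up as pairs after their values were seen. COL4A6 and COL4A5 on chromosome X stood at 12.4, 7.14 and 0.680 FPKM (2.28) and at 20.2, 9.46 and 3.18 (1.32). COL4A4 and COL4A3 on chromosome 2, the chains of the kidney filter, stood at 1.36, 0.619 and 5.99 (−2.11) and at 1.21, 0.170 and 4.40 (−2.21). Members of a pair thus shared a direction, while COL4A3 and COL4A4 were high in the library in which the other 4 chains were low.

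Stretches between the divergent starts are printed because each pair reads outward from there. They come from the RefSeq promoter table (GRCh38.p14), plus strand, and were limited to bases in no GENCODE 29 exon. The COL4A6 and COL4A5 starts lie 347 bases apart, and the stretch printed for them leaves out the bases nearest the COL4A6 start. Motif content is therefore that of the printed bases and not of the whole interval. Capitals mark GGGCGG, the core of a GC box, and CCAAT, the CCAAT box, on either strand.
COL4A4 to COL4A3, chr2:227164454-227164564: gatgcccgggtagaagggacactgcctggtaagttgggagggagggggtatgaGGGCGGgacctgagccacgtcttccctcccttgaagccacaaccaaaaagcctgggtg
COL4A6 to COL4A5, chrX:108439588-108439837: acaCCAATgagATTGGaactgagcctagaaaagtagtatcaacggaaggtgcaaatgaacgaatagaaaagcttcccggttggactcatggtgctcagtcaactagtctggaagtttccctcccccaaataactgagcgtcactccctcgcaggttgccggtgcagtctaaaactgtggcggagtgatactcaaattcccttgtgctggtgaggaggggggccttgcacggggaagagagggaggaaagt
The first holds 1 GGGCGG match over 111 bases with 61.3% G and C, and the second holds 2 CCAAT matches over 250 bases with 51.2%.

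Integrins and laminins, the receptors and partners of that matrix, had 5 of 20 members higher with SALL4A and 2 with SALL4B (median 0.28). ITGA2, the collagen-binding integrin chain, stood at 34.7, 54.2 and 5.93 FPKM (2.995). ITGB2, the leukocyte integrin chain, stood at 3.47, 3.03 and 16.6 (−2.13). ITGB1, the common partner chain, differed little at 511, 319 and 339 (−0.09), a difference that turned to 0.01 after scaling to a common total.

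Matrix glycoproteins were divided, with 11 of 58 higher with SALL4A and 4 with SALL4B (median 0.05). EFEMP1, a fibulin, stood at 212, 121 and 18.7 FPKM (2.63). FN1, fibronectin, was equally low with both at 918, 247 and 234 (0.08). Of fibroblast and stellate markers, 5 of 12 were higher with SALL4A and 2, DCN and LUM, with SALL4B. LUM, the proteoglycan lumican, stood at 263, 176 and 488 (−1.47).

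Contractile genes were mostly alike, with 3 of 35 higher with SALL4A and 1 with SALL4B (median 0.12). The 3 are markers of smooth muscle. ACTA2 stood at 56.9, 168 and 65.4 FPKM (1.35), TAGLN at 37.2, 133 and 51.9 (1.34), and CNN1 at 29.2, 61.4 and 20.5 (1.53). Of YAP targets 6 of 29 were higher with SALL4A and 1 with SALL4B (median 0.26). NT5E, the surface enzyme that makes adenosine, stood at 98.4, 132 and 49.1 (1.40), and IGFBP3 was the exception at 53.7, 51.0 and 137 (−1.41).

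Endothelial markers, absent or low with empty vector, were higher with SALL4A in 4 of the 6 at 1 FPKM (ECSCR, CDH5, KDR and TIE1) and with SALL4B in none. All 4 passed the 1 FPKM filter only through the SALL4A library, so this share was set by the filter. Their 12 listed members summed to 4.61 FPKM with empty vector, 25.4 with SALL4A and 2.58 with SALL4B. ECSCR, a surface protein of vascular cells, stood at 0.783, 10.1 and 0. PECAM1, another listed marker, stood at 1.61, 1.58 and 1.39, and VWF at 0.0808, 0.0183 and 0.0121. PECAM1 and VWF were thus not among the 4.

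Of 39 genes of the MAPK feedback and immediate early list, 9 were higher with SALL4A and 1 with SALL4B, at a median of 0.10. The 9 were DUSP5, DUSP6, SPRY1, SPRY2, SPRY4, SPRED1, ETV1, ETV4 and PHLDA1, which damp or report the ERK cascade, and the 1 was EGR1. SPRED1 stood at 25.2, 22.4 and 5.89 FPKM (1.76), ETV1 at 19.0, 10.3 and 2.36 (1.75) and DUSP6 at 14.5, 7.30 and 1.71 (1.61). In all 3 the SALL4B value was the lowest.

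TGF-beta and BMP genes had 6 of 45 higher with SALL4A and 1 with SALL4B (median 0.39). Of the 6, 3 passed the 1 FPKM filter only through the SALL4A library. FST, the activin antagonist follistatin, stood at 7.398 and 5.38 FPKM and was listed at 0 with SALL4B. PMEPA1 and SMAD7, feedback inhibitors of the pathway, stood at 39.2, 25.7 and 3.54 (2.56) and at 7.81, 9.20 and 2.33 (1.62). TGFBR2, a receptor, stood at 73.8, 40.5 and 18.8 (1.07). TGFB2, a ligand, was high in all 3 libraries at 80.2, 117 and 136 (−0.22). In the Wnt list 4 of 36 were higher with SALL4A and 2 with SALL4B, of which 2 and 1 passed the filter only through the higher library. FZD7 and FZD5, both receptors, went apart, at 12.1, 13.7 and 1.98 (2.30) and at 7.02, 6.51 and 16.1 (−1.18).

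Receptor tyrosine kinases had 4 of 26 higher with SALL4A and none with SALL4B (median 0.19). They were PDGFRB, CSF1R, KDR and TIE1, all at 4.68 FPKM or less, and all 4 were under 1 FPKM with SALL4B, so only their SALL4A values brought them in. Chemokines and interleukins were divided, with 5 of 34 higher with SALL4A and 4 with SALL4B. Of the 5, 3 passed the 1 FPKM filter only through the SALL4A library, while none of the 4 passed only through SALL4B. CCL2, which draws monocytes, stood at 45.9, 6.76 and 0.527 FPKM (2.35). CXCL1, which draws neutrophils, stood at 3.93, 3.15 and 18.0 (−2.20).

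**Figure D3:**
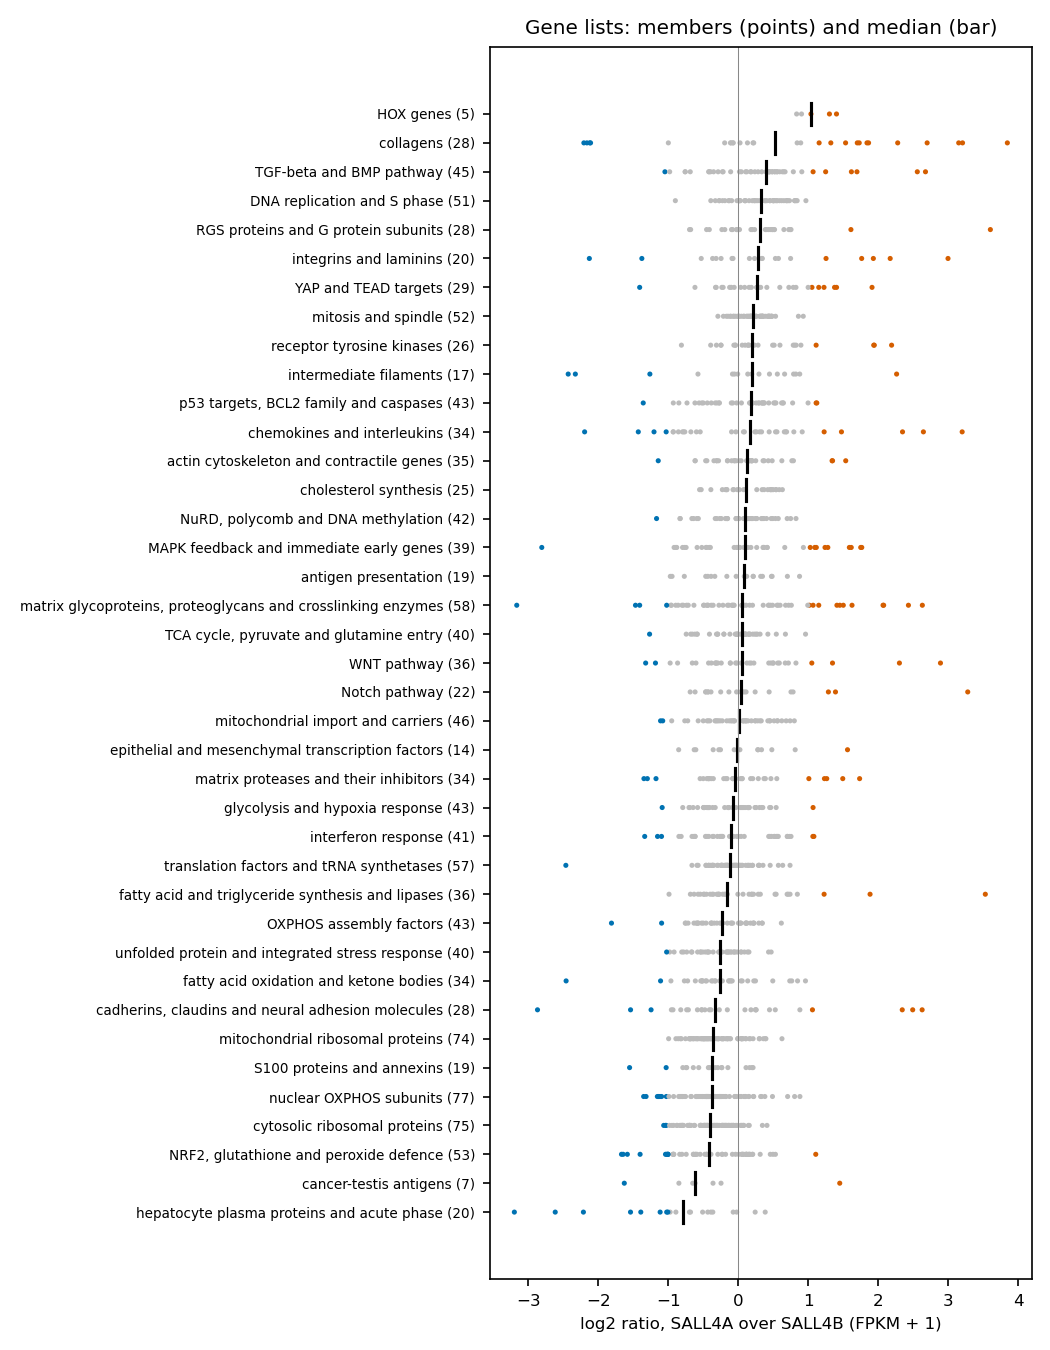
Log2 ratio of SALL4A to SALL4B for the members of each gene list (points) with the list median (black bar) and the number of members at 1 FPKM in brackets, for lists with 5 or more such members and without the cell type marker lists. Orange and blue points are at least 2-fold higher with SALL4A and SALL4B, and the bars run from 1.04 for 5 HOX genes to −0.80 for hepatocyte plasma proteins.

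Plasma proteins made by hepatocytes leaned the other way. Of 20 such genes at 1 FPKM, none was higher with SALL4A, 8 were higher with SALL4B, and 18 had a ratio below 0, with a median of −0.80. Over the scalings the count ran from 5 to 8. Of the 8, 3 passed the 1 FPKM filter only through the SALL4B library, APOA1 among them. APOA1, the main protein of high-density lipoprotein, stood at 0.308 FPKM with empty vector, 0.731 with SALL4A and 14.9 with SALL4B (−3.20). APOA4 stood at 0.118, 0 and 5.13, and SERPINA1, alpha-1 antitrypsin, at 5.78, 4.66 and 25.3 (−2.21). Only part of the list was high with SALL4B: against empty vector its median was −0.82 with SALL4A and 0.05 with SALL4B. Its summed FPKM was below empty vector with both isoforms, at 664 with empty vector, 158 with SALL4A and 277 with SALL4B. HNF4A, the master regulator of hepatocytes, was near 0 at 0.0773, 0.0541 and 0.287 FPKM, and APOA2 was listed at 0 in each of them.

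The bases before ITLN1 and APOA4 are printed because both genes were at or near 0 outside the SALL4B library. They come from the same table on the minus strand, with capitals for matches. The search on both strands covered 4 motifs. They were ATATT as an AT-rich run, the GC box, the CCAAT box and TATAAA as the TATA box.
ITLN1, chr1:160885181-160885430: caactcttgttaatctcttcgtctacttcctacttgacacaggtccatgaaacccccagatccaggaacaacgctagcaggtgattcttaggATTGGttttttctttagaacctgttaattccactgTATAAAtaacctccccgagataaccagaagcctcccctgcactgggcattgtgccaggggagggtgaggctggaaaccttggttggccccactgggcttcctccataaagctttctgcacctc
APOA4, chr11:116823307-116823554: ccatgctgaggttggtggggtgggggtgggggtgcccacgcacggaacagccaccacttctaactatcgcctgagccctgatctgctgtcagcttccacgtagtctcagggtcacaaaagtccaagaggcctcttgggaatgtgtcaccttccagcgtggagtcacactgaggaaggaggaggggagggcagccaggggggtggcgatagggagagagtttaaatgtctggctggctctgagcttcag
ITLN1 held 1 TATAAA match and 1 CCAAT match in reverse, and APOA4 held none of the 4 motifs. Motifs were matched as strings at any position, so a match need not be a working promoter element. Over 250 bases before the start, ATATT was present in 9.86% of all 6320 promoters matched, 11.7% of the 162 of genes higher with SALL4A and 12.6% of the 199 of genes higher with SALL4B. TATAAA was present in 4.94%, 10.5% and 12.6% in the same order, and GGGCGG in 70.5%, 69.1% and 57.3%. CCAAT was present in 37.1%, 33.3% and 33.2%. Matches overlapping each other were each counted as present.

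Mitochondrial lists differed among themselves. Import and carrier genes had a median of 0.00, with 23 of 46 above 0, and genes of the TCA cycle, pyruvate and glutamine entry had 0.05, with 21 of 40 above 0. Of 77 nuclear OXPHOS subunits, none was higher with SALL4A, 8 were higher with SALL4B and 61 were below 0, with a median of −0.38. The median was −0.26 for the 39 with a transcript of 1 kb or more. Against empty vector the list stood at −0.22 with SALL4A and 0.14 with SALL4B. ATPIF1, the inhibitor of ATP synthase, stood at 136, 88.9 and 229 FPKM (−1.35), and PET100, an assembly factor of complex IV, at 266, 107 and 378 (−1.81). Over the scalings the 8 subunits came down to 2, and the median stayed between −0.38 and −0.19.

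The NRF2 list, the defence against oxidants and electrophiles, had 9 of 53 higher with SALL4B and 1 with SALL4A (median −0.41). OSGIN1 stood at 7.45, 8.26 and 28.4 FPKM (−1.67), and EPHX1, which opens epoxides, at 45.5, 33.9 and 108 (−1.65). The count with SALL4B came down to 4 over the scalings. Cytosolic ribosomal proteins had a median of −0.41 with 66 of 75 below 0 and 3 members apart, RPS29, RPL38 and RPL23A, none of which stayed apart after scaling to a common total without small RNAs. The ratio also moved with transcript length, as the plot of strata shows. The median was −0.34 for genes with a longest transcript under 1 kb and 0.14 for those of 8 kb or more. Members of 1 kb or more had a median of −0.39 on the NRF2 list and −0.38 on the ribosomal list. All genes of that length had 0.003. What part length had in the list values was not tested beyond the 1 kb limit given.

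Proliferation genes were higher with SALL4A by less than 2-fold. Of 51 S phase genes, 40 had a ratio above 0 and none was 2-fold apart (median 0.33). Against empty vector the list stood at 0.53 with SALL4A and 0.27 with SALL4B. TYMS, which makes thymidylate, stood at 15.2, 25.8 and 12.7 FPKM (0.97), and E2F1, the S phase transcription factor, at 9.33, 17.7 and 9.46 (0.84). Mitosis genes had 42 of 52 above 0 and none 2-fold apart (median 0.22). TOP2A was level at 179, 179 and 189 (−0.07), a ratio that turned to 0.03 after scaling to a common total. NuRD, polycomb and DNA methylation genes, the partners of SALL4, held 1 gene apart in 42, CBX8 of polycomb, at 6.71, 7.78 and 18.7 (−1.17). That call ended after scaling to a common total without small RNAs.

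Position on the chromosome was examined after the values were seen. Among single genes at 5 FPKM or more, 2.53% were higher with SALL4A and 3.26% with SALL4B. On chromosome X, 23 of 290 such genes were higher with SALL4A and 4 with SALL4B, at a median of 0.25. On chromosome 17, 6 of 510 were higher with SALL4A and 29 with SALL4B, at a median of −0.29. Each was nearer to empty vector with SALL4A: the median was 0.02 with SALL4A and −0.24 with SALL4B for X, and −0.02 and 0.26 for 17. In windows of 30 neighbouring genes, each sharing 15 genes with the next and so not separate counts, 11 of 18 on X had a median of 0.3 or more and 20 of 33 on 17 had −0.3 or less, while 5 and 8 of 503 did so elsewhere. Of the 5 elsewhere, 2 were among the 6 windows on chromosome 18. The 10 genes higher with SALL4A in the X window from 101550531 to 115003975 came with none higher with SALL4B. By transcript length, the X median was −0.07 under 2 kb, 0.23 at 2 to 4 kb and 0.44 at 4 kb or more. The chromosome 17 medians were −0.57, −0.30 and −0.17 in the same order. Chromosomes other than X and 17 had −0.27, −0.05 and 0.11. DNA copy number was not measured here, and its part was not tested.

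**Figure D4:**
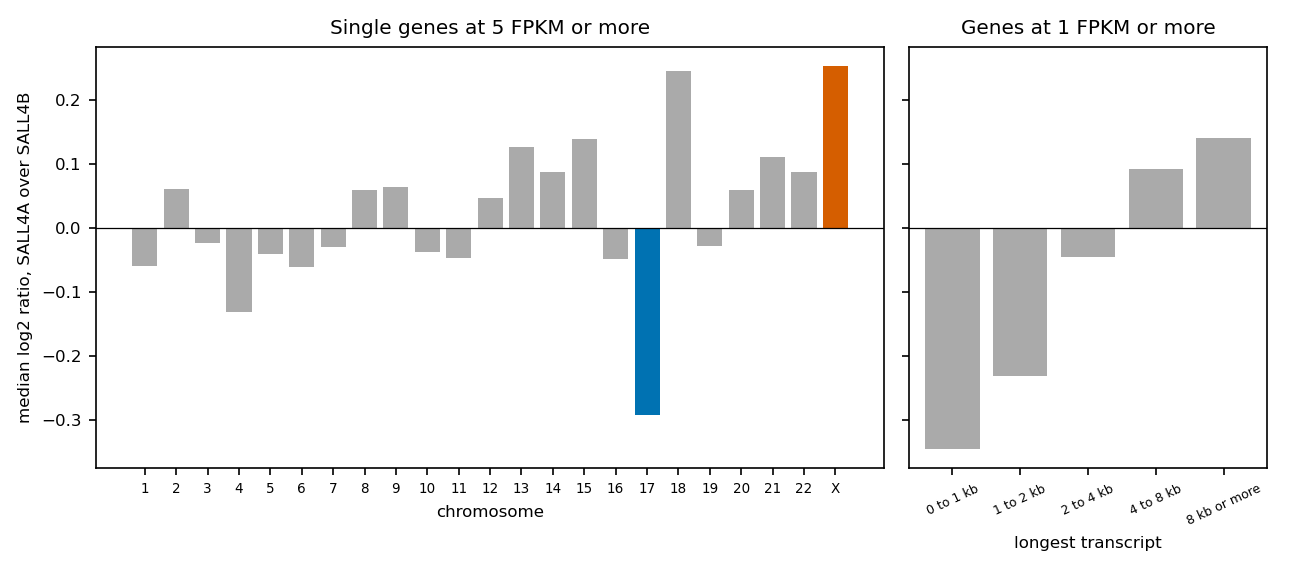
Median log2 ratio of SALL4A to SALL4B by chromosome for single genes at 5 FPKM or more (left) and by longest annotated transcript for genes at 1 FPKM or more without small RNAs (right). Chromosome 17 is lowest at −0.29 and X highest at 0.25, with chromosome 18 close to X, and the medians run from −0.34 for the shortest to 0.14 for the longest.

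Neighbouring genes were listed after the values were seen. Of the 11254 genes placed, 725 were at least 2-fold apart (6.44%). Of 11231 adjacent pairs of measured genes, 75 had both members at least 2-fold apart, 59 in the same direction and 16 in opposite directions. Of the 59, 28 pairs were higher with SALL4A and 31 with SALL4B. A run of 4 small leucine-rich proteoglycans on chromosome 12, EPYC, KERA, LUM and DCN, was higher with SALL4B throughout. EPYC stood at 76.1, 40.7 and 140 FPKM (−1.75), and KERA at 2.84, 1.99 and 9.08 (−1.75). FENDRR and FOXF1, divergent neighbours whose starts lie 1428 bases apart on chromosome 16, were both low with SALL4B, FOXF1 at 9.76, 9.40 and 0.609 (2.69). APOA4 and APOA1 have starts 14644 bases apart on chromosome 11. Neighbours can share reads where they overlap, and no source used here says whether strand was used in counting.

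The knockdown in SNU-398 gave a view of the same genes that the isoform comparison did not use. The SNU-398 libraries were unlike each other: small RNAs made up 1.74% of summed FPKM in untreated cells and 39.3% after knockdown. Summed FPKM was 330655 and 525524 in the same order, and estimated depth about 21.8 M and 7.3 M fragments. What part this had in the values below was not tested. In SNU-398, among 11086 genes without small RNAs measured in both lines, 6.55% were higher after knockdown and 8.03% were lower, by 2-fold or more. Of 50 genes above empty vector with SALL4A alone, 3 were higher and 7 lower after knockdown. Of 154 above with SALL4B alone, 17 were higher and 22 lower, and of 86 below with SALL4B alone, 8 were higher and 9 lower. ANKRD1 stood at 25.98 FPKM in untreated SNU-398 cells and 2.69 after knockdown, against 39.4 and 7.45 for SALL4. DCN, low with SALL4A, stood at 17.5 and 4.09. COL6A3 was near absent in SNU-398 at 0.438 and 1.39, so the gene with the widest gap between isoforms could not be followed there.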

How the data were processed

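RNA-seq was read from 5 deposited tables, 1 per library, of FPKM per gene, which the authors made. Alignment and quantification tools in the submitters' processing notes are TopHat2, SAMtools, Cufflinks and Cuffdiff, with no version, and GRCh38 and hg38 are the builds named there. Neither the annotation nor any joint normalisation of the libraries is stated in the sources used here. Groups followed the sample titles, since the cell line field reads SNU-387 for all 5 samples.

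Of 26032 rows per table, 17 had only a dash as name and were dropped, and duplicate rows of 450 symbols were added together. Ratios were log2((FPKM + 1)/(FPKM + 1)), a scale that understates changes of low genes. With 1 library per group no test, p-value or interval was computed. Depth was estimated from the steps between FPKM values of genes with 1 transcript in GENCODE 29, since the tables give no counts. It limits the precision of low values, most of all in the SALL4B library.

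The comparison, the 46 gene lists and the rules were chosen with earlier results of these data known. Named genes were, among single genes other than small RNAs whose higher isoform value was at least 5 FPKM, the 12 highest and 12 lowest ratios, 6 per class and direction, and per list the 4 largest differences and 2 highest means. Genes named from chromosome, pair, marker or SNU-398 looks, and members listed to complete a count, were chosen after their values were seen. A few named genes are not reported here. Simulated data served only to check that the code returned planted classes. They held large changes in genes at 5 FPKM or more, and none further below empty vector with both isoforms. They therefore do not test the counts per class given here. Alternatives covered pseudocounts, filters, scalings, fold limits, the empty vector band and length. Analyses used Python 3.11.15, numpy 2.4.6, pandas 2.3.3 and matplotlib 3.10.9.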

Additional observations from a re-analysis of the deposited data

How the results depend on the processing

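With a pseudocount of 0.1 FPKM, 739 genes were higher with SALL4A and 711 with SALL4B, 357 were off the empty vector level with SALL4A alone, 53 went further with SALL4A, 195 went further with SALL4B and 291 lay on opposite sides. With a pseudocount of 5 FPKM the counts were 194 and 154, with 94 for SALL4A alone, 158 for SALL4B alone, 4, 40 and 52. Genes further off with SALL4B numbered 77 at 5 FPKM or more in either library and 73 at 1 FPKM or more in both, where 258 genes were higher with SALL4A and 134 were off with SALL4A alone. After scaling to a common total without small RNAs, 258 genes were higher with SALL4B. The counts were 1331 and 1533 at 1.5-fold and 137 and 37 at 4-fold. An empty vector band of 1 gave 8 genes further with SALL4A, 60 further with SALL4B and 8 on opposite sides, with 296 in no class. A band of 0.25 gave 125 for SALL4A alone, 184 for SALL4B alone, 36 further with SALL4A and 371 on opposite sides. Leaving out small RNAs was added after seeing the data and kept the counts per class, both directions together, within 1.5-fold, while genes above empty vector with SALL4A alone went from 136 to 86. The median relative to all genes changed sign with no filter for cadherins, claudins and neural adhesion molecules (0.0284) and for biliary markers (0.11), a setting that adds genes near 0 FPKM. Of 134 named genes at least 2-fold apart, 40 were less apart with a pseudocount of 5 FPKM and 19 after scaling to a common total without small RNAs, and none changed sign. No paired analysis was possible because each group held 1 library. No replicate could be left out for the same reason.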

Other observations

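Interferon response genes had 2 of 41 members higher with SALL4A and 3 with SALL4B, and antigen presentation genes had none of 19 either way. Both interferon response genes higher with SALL4A passed the 1 FPKM filter only through that library. HLA-F, a class I relative, stood at 12.3 FPKM with empty vector, 2.26 with SALL4A and 5.40 with SALL4B, and B2M, the class I light chain, at 676, 367 and 507, so both were lower than empty vector with either isoform. Cholesterol synthesis genes held none of 25 at least 2-fold apart, and mitochondrial ribosomal proteins none of 74, at a median log2 ratio of −0.36.

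Among intermediate filaments, 1 of 17 was higher with SALL4A and 3 with SALL4B. NES, nestin, stood at 35.0 FPKM with empty vector, 31.8 with SALL4A and 5.84 with SALL4B, opposite in direction to VIM, its usual partner in filaments. LMNA, a nuclear lamin, was level at 287 with SALL4A and 289 with SALL4B. Among HOX genes, 5 reached 1 FPKM, and 3 of them, HOXA13, HOXB7 and HOXD10, were higher with SALL4A and none with SALL4B. All 5 were under 1 FPKM with SALL4B and were counted because of their SALL4A values, so the filter set this share. HOXD10 stood at 3.84, 3.81 and 0.952 FPKM.

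There were 259 genes at 1 FPKM or more with empty vector and under 1 FPKM with both isoforms, which the comparison of the isoforms left out.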
